A study of Mus musculus with 12 samples.

Results

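Sphere cells at passage 5 were compared with mouse embryonic fibroblasts (MEF), the cell type from which, per the labels, the spheres were converted. The comparison rests on 3 bead arrays titled as passage 5 sphere cells and 3 titled as MEF cells, which are 6 of the 12 arrays of the study, and covers 9343 genes. Both groups are of the inbred mouse strain FVB/N. The fibroblasts are PMEF_NL, primary mouse embryo fibroblasts resistant to neomycin, and the spheres are labelled as converted sphere cells at passage 5. The study's title gives AlbuMAX I, a bovine serum albumin product rich in lipids, as the ingredient of the medium that brought about the conversion. The labels do not say whether the spheres still carry the resistance, whether cells of several animals or embryos were pooled, or whether the 3 arrays of a group came from separate cultures, so the p-values given here measure the spread between arrays, which may be technical. The other 6 arrays, of passage 15 spheres and of J11 embryonic stem cells, entered the normalisation, the detection filter and the estimate of the spread, and no comparison made here. Replicates 1 and 2 of both groups lay on 1 chip (called chip 2) and replicate 3 of both on another (chip 3), so the chips were balanced between the groups.

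Fibroblasts of the embryo are mesenchymal cells that attach, spread, pull on their substrate through actin stress fibres and lay down a matrix of fibrillar collagens, elastic fibres and proteoglycans. Primitive endoderm is the epithelium that forms beside the pluripotent cells of the blastocyst under the transcription factors Gata6, Gata4, Sox17 and Sox7. It gives rise to visceral endoderm, which takes up and secretes nutrients around the embryo, and to parietal endoderm, which deposits a thick basement membrane of laminin and type IV collagen.

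Levels are given as log2 intensity, the fluorescence of a gene's probe after background correction and quantile normalisation, and a probe counts as above background where its detection p is under 0.05. Where 6 levels of a gene are written with "against" between them, the 3 before it are replicates 1, 2 and 3 of the arrays labelled MEF and the 3 after it are those of passage 5. A change in brackets or after "by" is a log2 difference, passage 5 minus labelled MEF, unless written as a fold. The 6 arrays had 17910 to 19060 probes above background (38.4% to 40.9% of those analysed). A gene passed the filter when all 3 arrays of any of the 4 groups were above background, so one that passed through a single group was bound to differ, and counts over the genes that passed are descriptions. The labels were first set against marker genes. All 9 fibroblast markers on the array were above background on every array labelled MEF, with summed raw intensities of 34061, 36979 and 42212, while 6 to 7 of them were so at passage 5, with sums of 12029, 8700 and 3233. Col1a2 and Lum were below background on all passage 5 arrays, and Prrx1 on replicate 3. Of 8 pluripotency markers on the array, 6 to 7 were above background in both groups, the arrays labelled MEF included, although these genes are not typical of fibroblasts. Their summed raw intensities were 24026, 16942 and 9258 on the arrays labelled MEF and 30411, 28283 and 20321 at passage 5. The group is therefore called arrays labelled MEF throughout, and the part of these transcripts in the results was not tested. Of 8 markers of extraembryonic endoderm, all were above background on each passage 5 array (sums 9729, 11491 and 9190) and 4 to 5 on the arrays labelled MEF (sums 1202, 909 and 1089), where Sox17, Lama1 and Foxa2 were undetected. Of 3 macrophage markers on the array, at most 1 was above background on any array. Of 4 endothelial markers, 1 to 2 were above background on the arrays labelled MEF and 3 at passage 5, and of 4 neural markers 1 was above it on the arrays labelled MEF and 2 at passage 5. Of 4 trophoblast markers, 2 to 3 were above background in both groups. The arrays hold RNA of whole cultures, so a smaller share of cells of a type and less RNA per cell cannot be told apart.

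At passage 5, 1106 of 9343 genes (11.8%) differed from the arrays labelled MEF, of which 454 (4.86%) were higher and 652 (6.98%) lower. The counts called in each gene list below are to be read beside these shares. All these lists were written with earlier results of these data known, so their shares are descriptions. A gene was called, here and below, at a limma adjusted p under 0.05 over all genes and a change of 2-fold or more. Among the 15 largest rises were 4 transcription factors of primitive endoderm and the gastrokines Gkn1 and Gkn2, and among the 15 largest falls were 3 collagen chains and 3 muscle actins. Both sets were drawn from called genes whose groups did not overlap. Over all 9343 genes, every passage 5 array lay above every array labelled MEF in 2899 and below in 1923. A lack of overlap was thus common, and is a description wherever it is given below. The median change over all genes was 0.05 on the log2 scale, and 55.05% of genes had a positive change. Among the genes that fell, 62 were below background on every passage 5 array, and among those that rose, 68 were so on every array labelled MEF. For such genes the change is a lower bound against the background level. The split of calls depends on the scaling between arrays: 41.0% of calls were higher with quantile normalisation, 64.0% with medians over all probes set equal and 31.4% with medians over the probes detected on every array set equal, a choice made after the data were seen. These scalings moved the median of all genes to 0.30 and −0.08. Every called gene kept its direction under both, which was likely beforehand, since a call needed a 2-fold change on these same arrays. With an offset of 50 in the background correction, the log2 changes were 0.721 of those given here at the median. That setting also estimated the background without the detection p, so the part of the offset alone was not tested.

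**Figure D1:**
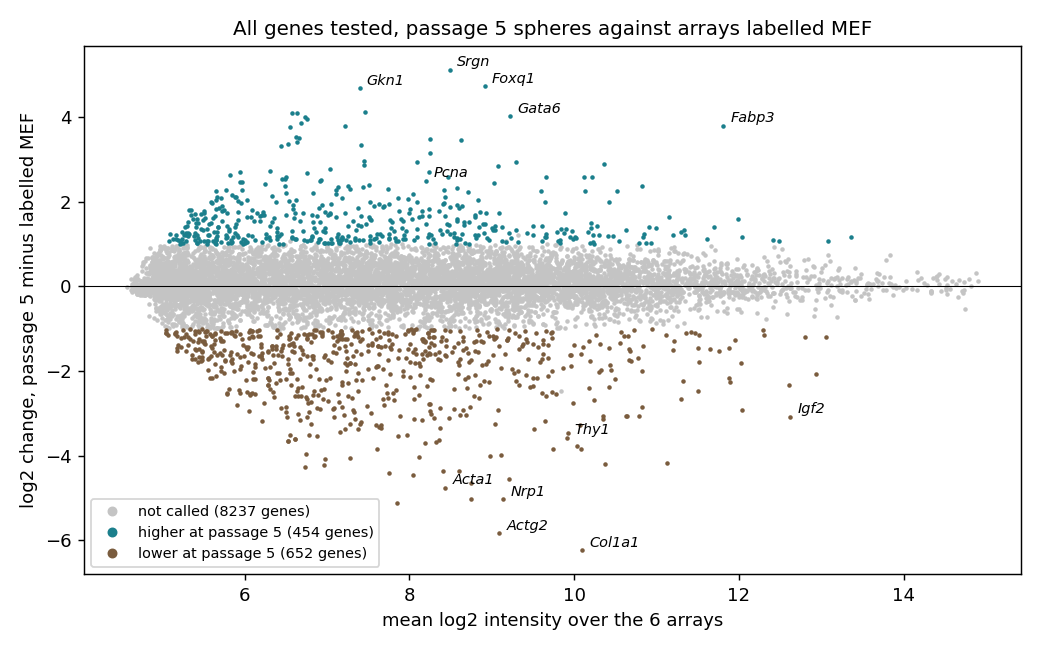
Log2 change (passage 5 minus labelled MEF) of all 9343 genes tested, against their mean log2 intensity over the 6 arrays. Coloured points are the 454 genes called higher and the 652 called lower, with Srgn at 5.12 and Col1a1 at −6.24 at the extremes.

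Transcription factors of primitive endoderm rose in 8 of the 13 that passed the detection filter, of 17 on the array. The median log2 change was 1.12 over those that passed. The share of these that rose was 61.5%, against 4.86% of all genes, and a gene could pass through passage 5 alone. This list too was written with earlier results of these data known. Foxq1, a forkhead factor, stood at 6.60, 6.51 and 6.54 on the arrays labelled MEF and 10.98, 11.30 and 11.57 at passage 5 (log2 change 4.73, SE 0.16, adjusted p = 9.37e-10). Gata6, the zinc finger factor that specifies primitive endoderm, stood at 7.36, 7.15 and 7.12 on the arrays labelled MEF and 11.02, 11.33 and 11.35 at passage 5 (log2 change 4.03, SE 0.15, adjusted p = 1.61e-09). Both were already above background on the arrays labelled MEF, and the groups lay far apart. Sox17, an HMG box factor of endoderm, stood at 4.61, 4.52 and 4.62 on the arrays labelled MEF and 8.32, 8.79 and 8.93 at passage 5 (at least 12.99-fold higher, adjusted p = 3.30e-09). The level on the arrays labelled MEF was that of background. Its relative Sox7 stood at 5.19, 4.69 and 4.82 against 8.01, 8.56 and 8.68 (log2 change 3.52, SE 0.22, adjusted p = 1.60e-07). Gata4, the partner of Gata6, stood at 6.32, 5.84 and 5.90 against 8.67, 8.88 and 9.12 (log2 change 2.87, SE 0.23, adjusted p = 1.83e-06), and another of its probes gave 1.91. Every passage 5 array lay above every array labelled MEF for these 5 genes. Smaller rises were those of Hhex, a homeobox factor of anterior visceral endoderm (2.29), of Hnf4a, the nuclear receptor of visceral endoderm and liver (1.12), and of Eomes, a T-box factor (1.01). Tcf7l1 (0.61), Sall4 (0.58) and Gsc (0.07) were not called, and Prdm1, Cited1, Mixl1 and Lhx1 had no probe that passed. Calls that ended when 1 array was left out were those of Hnf4a (0.84) and Eomes (0.95) without MEF replicate 3, Eomes (0.99) without passage 5 replicate 2 and Eomes (0.96) without passage 5 replicate 3. Of the other settings, calls ended for Hnf4a and Eomes with an offset of 50, in the authors' deposited log2 table, on chip 2 alone and with median scaling on probes detected on every array. Sox7 was above background on 1 of the 3 arrays labelled MEF.

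Part of the products of visceral and parietal endoderm rose as well, in a list written with earlier results of these data known. Of 31 on the array, 24 passed the filter, 13 rose and 2 fell (median 1.33, or 1.11 with undetected genes at their bound). Over all genes 4.86% were called higher and 6.98% lower. Srgn, the proteoglycan serglycin of secretory granules, had the largest rise of all genes, at 6.04, 5.86 and 5.89 on the arrays labelled MEF and 10.89, 10.99 and 11.28 at passage 5 (log2 change 5.12, SE 0.14, adjusted p = 2.14e-10). Every passage 5 array lay far above the arrays labelled MEF. Amn, which holds the endocytic receptor cubilin at the surface of visceral endoderm, stood at 7.20, 6.99 and 6.48 against 10.07, 10.23 and 10.77 (log2 change 3.46, SE 0.22, adjusted p = 1.84e-07). Dab2, an adaptor of endocytosis, stood at 8.60, 8.90 and 9.50 against 10.92, 11.39 and 11.50 (log2 change 2.27, SE 0.22, adjusted p = 6.41e-06). Both were higher on all 3 passage 5 arrays. Pth1r, the receptor of parathyroid hormone-related protein, rose by 2.68, Clu, the secreted chaperone clusterin, by 2.86, Tfpi, the tissue factor pathway inhibitor, by 2.59, Pga5, a pepsinogen, by 3.48 and the water channel Aqp8 by at least 8.76-fold. Pdgfra (1.75), given below, also rose. So did Ctsh (1.93), Ttr (1.71), Spink1 (1.43) and Ihh (1.22), named after their values were seen. The calls of Ctsh, Ttr, Spink1 and Ihh under other settings are not given here. The 2 that fell, Plat and Thbd, named after their values were seen, encode tissue plasminogen activator (−1.18) and thrombomodulin (−1.02). Sparc (0.04) and Apoe (0.34) were not called. Nor were Apoa1 (0.16), Apoa4 (0.01) and Trf (−0.26), named after their values were seen. Afp and Apoa2, secreted by mature visceral endoderm, and Rbp4, Cer1, Fgfr4, Tfpi2 and Amot had no probe that passed. When 1 array was left out, the calls lost were Plat (−0.76) without MEF replicate 3, Thbd (−0.998) without passage 5 replicate 2 and Thbd (−0.81) without passage 5 replicate 3. Other settings ended the calls of Plat and Thbd with an offset of 50, with median scaling over all probes, in the authors' deposited log2 table and on chip 2 alone. Another probe gave 0.53 for Tfpi.

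Basement membrane genes went both ways. The 3 chains of laminin-111, the laminin of the early embryo, all rose. Lama1 stood at 4.77, 4.50 and 4.63 on the arrays labelled MEF and 6.78, 6.79 and 7.16 at passage 5 (at least 3.81-fold higher, adjusted p = 8.65e-08), Lamb1 at 7.67, 7.82 and 8.31 against 9.22, 9.12 and 9.83 (log2 change 1.46, SE 0.20, adjusted p = 1.14e-04) and Lamc1 at 10.67, 10.66 and 10.43 against 11.66, 11.82 and 11.95 (log2 change 1.22, SE 0.12, adjusted p = 7.14e-06). Lama1 was at background on all arrays labelled MEF, while Lamb1 and Lamc1 were above it there. Col4a1, a chain of type IV collagen, rose by 1.07, and its partner chain Col4a2 had a change of 0.89 that was not called. Smoc2 (−2.74), Col4a5 (−1.90) and Col15a1 (at least 2.29-fold lower) fell. Over the 19 of 26 that passed, the median change was 0.01, near that of all genes. Lost with 1 array left out were Col4a1 (0.80) without MEF replicate 1, Col4a1 (0.98) without MEF replicate 2 and Col4a1 (0.89) without passage 5 replicate 3. Not called under other settings were Col4a1 with median scaling on probes detected on every array, Col15a1 with an offset of 50 and in the authors' deposited log2 table. Calls were gained by Col4a2 (1.09) without MEF replicate 3, Col4a2 (1.01) without passage 5 replicate 1, Col4a2 with median scaling over all probes. A further probe gave −0.65 for Col4a5. Smoc2 and Col4a5 were above background on 2 of the 3 arrays at passage 5.

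**Figure D2:**
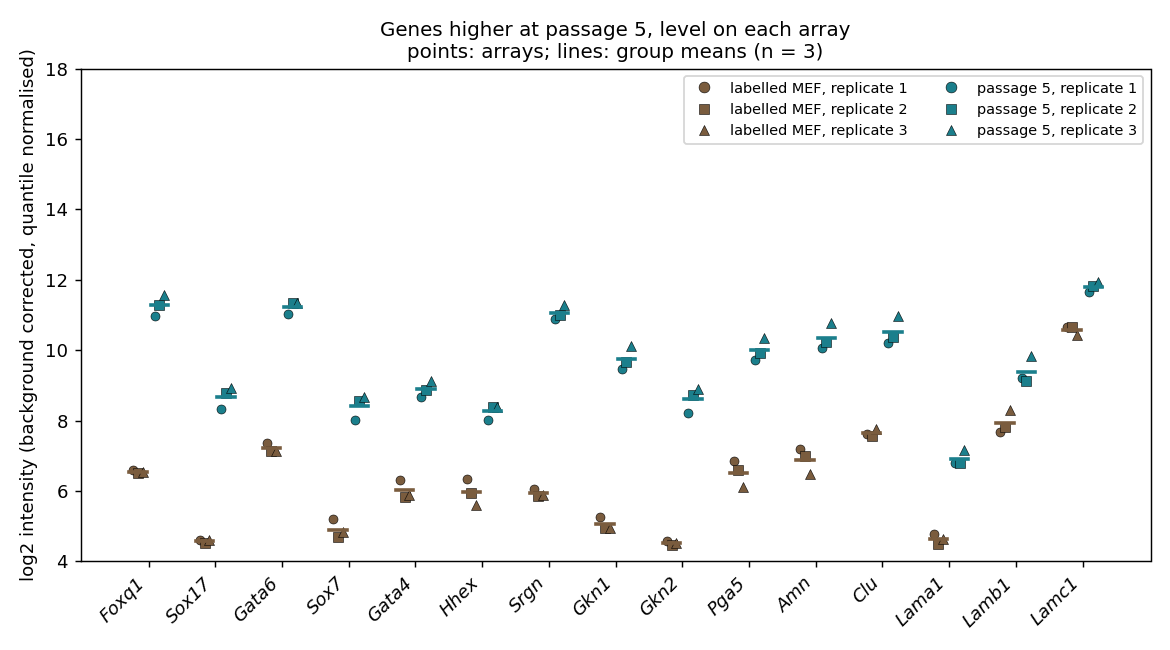
Log2 intensity on each of the 6 arrays for 15 genes that rose at passage 5: factors of primitive endoderm (Foxq1 to Hhex), secreted and endocytic products (Srgn to Clu) and the 3 chains of laminin-111. Points are arrays, lines are means of 3, and in each gene the passage 5 points lie above all points labelled MEF, as in 2899 of all 9343 genes.

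Gastrokines 1 and 2, secreted proteins of the stomach lining, were among the largest rises. Gkn1 stood at 5.27, 4.95 and 4.94 on the arrays labelled MEF and 9.45, 9.66 and 10.11 at passage 5 (log2 change 4.69, SE 0.16, adjusted p = 1.00e-09), and Gkn2 at 4.58, 4.46 and 4.52 on the arrays labelled MEF and 8.22, 8.73 and 8.90 at passage 5 (at least 12.4-fold higher, adjusted p = 3.30e-09). Both were lower than any passage 5 array on all arrays labelled MEF. The membrane mucin Muc1 rose by 1.05 and Pgc (0.19) and Atp4a (0.76) were not called. Other stomach genes, among them Tff1, Tff2, Cblif, Atp4b, Ctse and Anxa10, had no probe that passed. Gkn1 and Gkn2 lie 22.4 kb apart on chromosome 6 in the RefSeq annotation of GRCm38.p6. Their promoter windows are shown because these neighbours rose together. Each runs from 250 bases before to 50 after the start of the gene, in the direction of transcription, and capitals mark GATA motifs, the letters AGATAA and their variants with T at the start, G at the end or both, searched on both strands.
Gkn1, chr6:87350866-87351165, minus strand: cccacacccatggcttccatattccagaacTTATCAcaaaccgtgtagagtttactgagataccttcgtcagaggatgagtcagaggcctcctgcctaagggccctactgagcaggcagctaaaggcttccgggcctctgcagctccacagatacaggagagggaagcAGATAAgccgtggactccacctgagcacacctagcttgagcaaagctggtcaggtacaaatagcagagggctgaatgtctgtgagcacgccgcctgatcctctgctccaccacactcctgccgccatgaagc
Gkn2, chr6:87373115-87373414, plus strand: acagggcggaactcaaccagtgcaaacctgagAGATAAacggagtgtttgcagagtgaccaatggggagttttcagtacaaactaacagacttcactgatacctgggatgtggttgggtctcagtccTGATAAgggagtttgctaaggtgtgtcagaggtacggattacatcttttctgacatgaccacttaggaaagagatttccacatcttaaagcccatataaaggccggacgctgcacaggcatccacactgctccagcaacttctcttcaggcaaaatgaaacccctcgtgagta
Each window held 2 such matches. The motif was in 29.8% of all promoter windows of this length in the RefSeq table, in 19.5% of those of the genes tested and in 19.4% of those of the genes that rose, a share close to that of the genes tested. Muc1 was not called without MEF replicate 3 (0.83). Muc1 was not called with an offset of 50, in the authors' deposited log2 table, with the mean over probes, on chip 2 alone and with median scaling on probes detected on every array. Another probe gave 0.25 for Muc1. Gkn1 was above background on 1 of the 3 arrays labelled MEF.

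The remaining genes among the 15 largest rises had varied roles. Klb, the co-receptor beta-klotho of endocrine fibroblast growth factors, stood at 4.79, 4.74 and 4.66 against 8.50, 8.77 and 8.94 (at least 13.5-fold higher, adjusted p = 3.50e-09). Fabp3, the fatty acid binding protein of heart muscle, stood at 10.03, 9.89 and 9.80 against 13.58, 13.58 and 13.97 (log2 change 3.81, SE 0.16, adjusted p = 3.50e-09). Nostrin, which traffics endothelial nitric oxide synthase, stood at 5.50, 5.49 and 5.19 against 9.25, 9.48 and 9.85 (log2 change 4.13, SE 0.20, adjusted p = 1.86e-08). All 3 genes were tightly grouped within each set of arrays. Hs3st1, a heparan sulfate sulfotransferase, rose by 3.79, Ucp1, the uncoupling protein of brown fat, by 3.96, the gut hormone gene Pyy by at least 10.98-fold, Clic6, of the chloride intracellular channel family, by at least 12.5-fold, and Nxf7, of the nuclear RNA export factor family, by at least 10.6-fold. At passage 15 and in the embryonic stem cells, which lay on another chip and were not compared here, the mean levels were 4.93 and 4.57 for Sox17, 4.55 and 5.03 for Gkn1, and 13.17 and 10.94 for Fabp3. Ucp1 was above background on 1 of the 3 arrays labelled MEF.

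Genes of naive pluripotency, the state of the epiblast before implantation, were mostly not called. Of 28 that passed, 3 rose: the cytokine signalling inhibitor Socs3 (1.38), the Ras family member Eras (1.16) and alkaline phosphatase Alpl (1.14). That share was 10.7%, against 4.86% of all genes called higher, and none fell, so that the share called in either direction was near the 11.8% of all genes. Pou5f1, which encodes Oct4, stood at 11.85, 11.79 and 11.01 on the arrays labelled MEF and 11.50, 11.67 and 11.05 at passage 5 and was not called (change −0.14, adjusted p = 0.667). Zfp42, or Rex1, stood at 11.37, 11.003 and 10.50 against 11.15, 11.09 and 10.94 (change 0.10, adjusted p = 0.751), and Sox2 at 8.53, 8.40 and 7.74 against 9.02, 9.03 and 9.18 (change 0.86, adjusted p = 0.00454). The 2 groups overlapped in Pou5f1 and Zfp42, and in each of these 3 genes the lowest of the arrays labelled MEF was replicate 3. Klf4, a zinc finger factor, had a change of 0.63, Esrrb 0.61, Tbx3 0.59 and Myc −0.77, none of them called. In the primed pluripotency list 1 of 12 was called, Sox4, which fell by 1.95 on the log2 scale. Leaving out 1 array ended the calls of Eras (0.89) and Alpl (0.81) without MEF replicate 3. Calls lost under other settings were Eras and Alpl on chip 2 alone. Newly called were Sox2 (1.01) without MEF replicate 1, Sox2 with an offset of 50, with median scaling over all probes and in the authors' deposited log2 table, Myc with median scaling on probes detected on every array.

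Nodal signalling, which patterns the early embryo and maintains primed pluripotency, showed opposite shifts in its parts. Tdgf1, the Nodal co-receptor Cripto, stood at 8.27, 7.90 and 7.71 against 9.35, 9.30 and 9.78 (log2 change 1.52, SE 0.25, adjusted p = 3.82e-04), and the ligand Gdf1 rose by 1.24. Fstl1, a secreted follistatin-like protein, stood at 10.49, 11.08 and 11.27 against 8.70, 8.56 and 7.83 (log2 change −2.58, SE 0.23, adjusted p = 3.84e-06). The groups did not overlap in either Tdgf1 or Fstl1. The related Fstl3 (−1.27), the signal transducer Smad3 (−1.24), its feedback inhibitor Pmepa1 (−1.11) and the convertase Furin (−1.02) fell too. Nodal itself (−0.27) and Gdf3 (0.26) were not called. In all, 2 of 17 rose and 5 fell. Calls that ended when 1 array was left out were those of Furin (−0.996) without MEF replicate 2, Smad3 (−0.97) and Furin (−0.90) without MEF replicate 3, Furin (−0.99) without passage 5 replicate 1 and Furin (−0.95) without passage 5 replicate 2. Of the other settings, calls ended for Gdf1, Fstl3, Pmepa1 and Furin with an offset of 50, Fstl3, Pmepa1 and Furin in the authors' deposited log2 table, Smad3, Pmepa1 and Furin with median scaling over all probes, Smad3 and Pmepa1 on chip 2 alone. Fstl3 was above background on 2 of the 3 arrays at passage 5.

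Germline genes rose in 12 of the 21 that passed the filter, of 39 on the array (1.13 at the median). That share of those that passed was 57.1%, against 4.86% of all genes, and a gene could pass through passage 5 alone. This list too was written with earlier results of these data known. Stra8, which retinoic acid induces at the start of meiosis, stood at 4.78, 5.09 and 4.65 on the arrays labelled MEF and 7.86, 8.11 and 8.68 at passage 5 (log2 change 3.38, SE 0.26, adjusted p = 9.49e-07). Kit, the receptor of stem cell factor, stood at 8.22, 7.92 and 7.32 against 10.39, 10.91 and 10.97 (log2 change 2.94, SE 0.22, adjusted p = 7.44e-07), and Dazl, an RNA-binding protein of germ cells, at 7.27, 6.93 and 6.26 against 8.78, 8.86 and 9.10 (log2 change 2.09, SE 0.21, adjusted p = 8.31e-06). All 3 lay apart between the groups. Further rises were those of the homeobox gene Rhox5 (2.60), the meiotic cohesin Rec8 (1.70), the helicase Mov10l1 of the piRNA pathway (at least 2.99-fold), Tex11 (1.76) and Taf7l (1.61). The genes of recombination and the synaptonemal complex, Spo11, Dmc1, Msh4, Hormad1, Sycp2 and Sycp3, and the germ cell helicase Ddx4 had no probe that passed. Other settings ended the calls of Mov10l1, Tex11 and Taf7l with an offset of 50. Stra8 was above background on 1 of the 3 arrays labelled MEF. Tex11 was above background on 2 of the 3 arrays labelled MEF.

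Collagen genes fell more than any other list, with a median change of −3.66, or −3.41 with undetected genes at their bound. Of 20 on the array 15 passed, and 13 of these fell. Col1a1, a chain of type I collagen, stood at 12.61, 13.31 and 13.74 on the arrays labelled MEF and 7.92, 7.24 and 5.78 at passage 5 (75.6-fold lower, log2 change −6.24, SE 0.42, adjusted p = 3.66e-07). Col3a1, the type III chain of distensible tissue, stood at 9.89, 10.14 and 11.22 against 5.60, 5.19 and 5.08 (log2 change −5.13, SE 0.26, adjusted p = 3.01e-08). In both genes the level at passage 5 was lowest on replicate 3. The other type I chain, Col1a2, was at least 10.6-fold lower and the type V chain Col5a2 at least 13.8-fold lower. Col8a1 (−4.65), the cartilage collagen Col2a1 (−4.07), Col6a1 (−3.99) and Col5a1 (−3.78) fell as well. Col17a1 (0.19), a collagen of epithelial hemidesmosomes, was not called. Col8a1 was at −5.31 without passage 5 replicate 1. Changes without passage 5 replicate 3 were −5.64 for Col1a1 and −3.71 for Col8a1. Col8a1 was above background on 2 of the 3 arrays at passage 5.

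Of the enzymes and fibres that assemble the matrix, 13 of 28 that passed fell, 2 rose and 13 were not called. Lox, the lysyl oxidase that cross-links collagen and elastin, stood at 12.78, 13.04 and 13.82 on the arrays labelled MEF and 10.51, 9.87 and 6.75 at passage 5 (log2 change −4.17, SE 0.69, adjusted p = 4.35e-04). Its relative Loxl1 fell by 3.84 on the log2 scale, while Loxl2 (−0.38) and the lysyl hydroxylase Plod3 (−0.01) were not called. Eln, elastin itself (−2.55), the microfibril proteins Mfap4 (−3.60) and Mfap5 (−2.16), the fibulin Fbln2 (−3.14) and the TGF-beta binding proteins Ltbp1 (−2.93) and Ltbp2 (−3.28) fell. The 2 that rose were P4ha2, a prolyl hydroxylase (1.66), and Plod2, a lysyl hydroxylase (1.26), both named after their values were seen. Without passage 5 replicate 1, Lox was at −4.91 and Ltbp2 at −4.05. Lox was at −3.03, Fbln2 at −2.22 and Ltbp2 at −2.10 without passage 5 replicate 3. A further probe gave 0.30 for Ltbp1. Eln and Mfap4 were above background on 1 of the 3 arrays at passage 5. Mfap5 was above background on 2 of the 3 arrays at passage 5.

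Among proteoglycans, tenascins and thrombospondins 14 of 23 fell (median −1.61). They included tenascin C, Tnc (−3.83), biglycan, Bgn (−3.37), versican, Vcan (−2.34), syndecan 2, Sdc2 (−2.80), and Thbs2 (−3.02). Cd44, the receptor of hyaluronan, stood at 8.52, 8.94 and 9.74 against 6.68, 5.71 and 4.69 (log2 change −3.37, SE 0.39, adjusted p = 2.36e-05). Sdc4 (−0.76), Tgfbi (−0.49) and Gpc3 (0.31) were not called. Of 12 CCN matricellular genes and YAP targets, which respond to tension on the actin cytoskeleton, 7 fell. Ccn2, also called CTGF, stood at 12.12, 12.66 and 13.09 against 10.61, 10.07 and 9.25 (log2 change −2.65, SE 0.30, adjusted p = 2.24e-05), and Ankrd1, a nuclear target of YAP, at 8.26, 8.44 and 8.25 against 7.17, 6.31 and 4.68 (log2 change −2.26, SE 0.42, adjusted p = 0.00102). Ccn1 fell by 2.52, Ccn5 by 2.64, and Ccn4 by 5.02 with the probe used. Tnc was at −4.52, Bgn at −3.96, Ccn5 at −3.23 and Ccn4 at −5.66 without passage 5 replicate 1. Changes without passage 5 replicate 3 were −2.85 for Tnc, −2.54 for Bgn, −2.38 for Thbs2, −1.57 for Ankrd1, −1.86 for Ccn5 and −4.10 for Ccn4. Another probe gave −0.66 for Tnc, −0.97 for Cd44 and −0.74 for Ccn4. Cd44, Ankrd1, Ccn5 and Ccn4 were above background on 2 of the 3 arrays at passage 5.

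Proteases that remodel the matrix fell together with their inhibitors. Of 32 on the array 29 passed and 19 fell (median −1.42, or −1.37 with undetected genes at their bound). The inhibitor Timp3 fell by 2.50 on the log2 scale, Timp1 by 2.17 and Timp2 by 1.98, and the secreted serpin Serpinf1 by 3.06. Of the proteases, Adamts12 changed by −3.52 and the urokinase Plau by −2.07, and Adamts5 was at least 5.15-fold lower. Mmp13, a collagenase, stood at 11.50, 11.21 and 10.54 against 10.59, 9.84 and 5.38 and was not called (change −2.48, adjusted p = 0.0529), and its arrays spread widely at passage 5. Ctsb (0.05) and Htra1 (0.44) were not called. Without passage 5 replicate 3, Timp2 was at −1.37 and Serpinf1 at −2.34. Gained calls were those of Mmp13 (−3.47) without passage 5 replicate 1, Mmp13 (−3.09) without passage 5 replicate 2, Mmp13 with an offset of 50, in the authors' deposited log2 table, with the mean over probes, with chip as a block, on chip 2 alone and with median scaling on probes detected on every array. Adamts12 was above background on 2 of the 3 arrays at passage 5.

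On the fibroblast surface 23 of 32 genes that passed fell (median −2.20). Nrp1, the receptor of semaphorins and VEGF, stood at 11.10, 11.67 and 12.20 on the arrays labelled MEF and 7.28, 6.83 and 5.76 at passage 5 (log2 change −5.04, SE 0.35, adjusted p = 5.31e-07). Cav1, the coat protein of caveolae, stood at 10.93, 11.52 and 12.01 against 8.04, 7.15 and 5.58 (log2 change −4.56, SE 0.46, adjusted p = 7.98e-06). Pdgfrb, the PDGF receptor of mesenchymal cells, stood at 8.72, 9.17 and 9.97 against 6.30, 5.92 and 5.82 (log2 change −3.28, SE 0.25, adjusted p = 1.10e-06). All 3 fell on every passage 5 array. Thy1, a GPI-anchored surface glycoprotein, stood at 11.33, 11.57 and 12.20 against 9.51, 8.79 and 6.06 (log2 change −3.58, SE 0.61, adjusted p = 5.39e-04), and the receptor kinase Axl at 11.99, 12.49 and 12.92 against 9.61, 9.16 and 6.07 (log2 change −4.19, SE 0.65, adjusted p = 2.54e-04). Both spread more at passage 5, with an SD of 1.82 and 1.93 there against 0.45 and 0.46 on the arrays labelled MEF (n = 3). The SE and adjusted p use a spread pooled over all 4 groups. For these 2 genes the SE is therefore smaller than these SDs alone would give. The same holds for Lox and Acta2, whose passage 5 arrays also spread widely. Vim, the intermediate filament vimentin, fell by 2.08 from 13.98 to 11.90 and stayed abundant. The annexins Anxa1 (−3.64) and Anxa3 (−3.47) and the collagen integrin Itga11 (−3.53) fell. The 2 that rose, named after their values were seen, were Pdgfra, the PDGF receptor that primitive endoderm also carries (1.75), and podoplanin, Pdpn (1.29). Thy1 was at −4.27, Axl at −4.85, Anxa1 at −4.35 and Itga11 at −4.12 without passage 5 replicate 1. Cav1 was at −3.89, Thy1 at −2.55, Axl at −3.08, Anxa1 at −2.72, Anxa3 at −2.75 and Itga11 at −2.74 without passage 5 replicate 3. Anxa1 and Itga11 were above background on 2 of the 3 arrays at passage 5.

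Genes of the contractile cytoskeleton fell, and so did the 3 TGF-beta ligands. Of 37 genes on the array 35 passed and 21 fell (median −1.44, or −1.29 with undetected genes at their bound). Actg2, the smooth muscle gamma actin, stood at 11.27, 11.94 and 12.82 on the arrays labelled MEF and 7.31, 6.66 and 4.55 at passage 5 (log2 change −5.84, SE 0.54, adjusted p = 4.65e-06). Acta2, the smooth muscle alpha actin of activated fibroblasts, stood at 10.13, 10.94 and 11.30 against 7.62, 7.12 and 4.50 (log2 change −4.37, SE 0.63, adjusted p = 1.38e-04), and Acta1, the skeletal muscle actin, at 10.36, 10.80 and 11.28 against 7.15, 6.33 and 4.68 (log2 change −4.76, SE 0.45, adjusted p = 5.29e-06). The 3 actins were high on all arrays labelled MEF and differed among the passage 5 arrays, with the lowest level on replicate 3. Actc1, the cardiac actin (−4.09), transgelin, Tagln (−3.53), and the tropomyosin Tpm2 (−3.06) fell as well, and cytoplasmic Actb (−0.52) and the calponin Cnn3 (−0.28) were not called. The ligand Tgfb3 stood at 9.28, 10.05 and 10.55 against 6.11, 5.72 and 4.83 (log2 change −4.40, SE 0.31, adjusted p = 5.83e-07) and Tgfb2 fell by 3.84. Tgfb1, named after its values were seen, fell by 1.95. Promoters of muscle actins carry CArG boxes, the binding sequence of serum response factor, and are shown here for 2 actins that fell together. Windows are as above, and capitals mark the CArG box, which is CC, then 6 letters that are A or T, then GG, searched on both strands.
Acta1, chr8:123894726-123895025, minus strand: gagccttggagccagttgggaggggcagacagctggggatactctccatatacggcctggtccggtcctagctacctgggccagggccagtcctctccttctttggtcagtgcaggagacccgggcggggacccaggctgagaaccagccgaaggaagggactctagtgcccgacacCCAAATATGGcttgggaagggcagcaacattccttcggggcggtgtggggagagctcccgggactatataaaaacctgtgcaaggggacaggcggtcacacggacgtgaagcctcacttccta
Actc1, chr2:114052826-114053125, minus strand: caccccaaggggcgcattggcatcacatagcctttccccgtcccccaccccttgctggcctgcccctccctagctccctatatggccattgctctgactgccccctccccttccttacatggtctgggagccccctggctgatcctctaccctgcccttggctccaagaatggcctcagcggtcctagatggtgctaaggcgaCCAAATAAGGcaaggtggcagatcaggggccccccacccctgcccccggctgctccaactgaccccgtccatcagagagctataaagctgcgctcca
A CArG box was in 1.63% of all promoter windows in the table, 1.36% of those of the genes tested, 3.2% of those of the genes that fell and 0.818% of those of the genes that rose. A match is a stretch of letters and no measurement of binding. Changes without passage 5 replicate 1 were −4.98 for Acta2. Without passage 5 replicate 3, Actg2 was at −5.02, Acta2 at −3.42 and Acta1 at −4.08. A further probe gave −0.91 for Acta2 and −0.95 for Tgfb2. Actg2, Acta2, Acta1, Actc1, Tagln and Tgfb3 were above background on 2 of the 3 arrays at passage 5.

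Genes of striated muscle fell in 14 of 22 that passed (median −1.34, or −1.12 with undetected genes at their bound). Tnnc1, the calcium-binding troponin C of heart and slow muscle, stood at 9.50, 10.22 and 11.10 against 5.68, 5.76 and 5.998 (log2 change −4.46, SE 0.31, adjusted p = 4.07e-07). Tnnt2, cardiac troponin T, stood at 8.22, 8.80 and 9.57 against 4.62, 4.67 and 4.52 (at least 15.2-fold lower, adjusted p = 1.19e-07). Neither overlapped between the groups. Actn2 (−2.98), the myosin Myh7 (−2.47), the transcription factor Mef2c (−2.61) and Tnnc2 (−1.83) fell too. The myogenic factors Myod1, Myog, Myf5 and Myf6 had no probe that passed. Of the 2 that rose, both named after their values were seen, Myl3 was at least 2.38-fold higher and Actn3 changed by 1.74. Actn3 was not called with the mean over probes. Another probe gave −0.96 for Mef2c and 0.20 for Actn3.

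Transcription factors of mesenchyme fell in 18 of 27 that passed, of 40 on the array (median −1.59, or −1.44 with undetected genes at their bound). Nfix, of the nuclear factor I family, stood at 10.34, 11.06 and 11.57 on the arrays labelled MEF and 7.36, 6.96 and 6.60 at passage 5 (log2 change −4.02, SE 0.27, adjusted p = 4.02e-07). Prrx1, the paired-related factor of limb mesenchyme, stood at 7.84, 8.18 and 9.27 against 5.78, 5.11 and 4.63 (log2 change −3.26, SE 0.32, adjusted p = 6.76e-06) and Zeb2, a repressor of E-cadherin, at 8.15, 8.28 and 9.40 against 6.47, 6.0005 and 5.94 (log2 change −2.47, SE 0.28, adjusted p = 1.80e-05). Foxc2 (−3.01), Twist2 (−2.57), Nfib (−2.24), Sox9 (−2.19), Shox2 (−1.96) and Msx1 (−1.95) fell as well. Zeb1 (−0.65), Klf9 (0.36) and Tbx3 (0.59) were not called. Prrx1, Foxc2, Twist2 and Msx1 were above background on 2 of the 3 arrays at passage 5.

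Integrins and cadherins fell in part, and some epithelial genes rose. Of the integrins and cadherins that passed, 50% fell, against 6.98% of all genes. Of 14 integrins and cadherins 7 fell, among them the common beta chain Itgb1 (−1.52), the fibronectin receptor chain Itga5 (−1.25), Cdh3 (−1.35) and N-cadherin, Cdh2 (−1.12). E-cadherin, Cdh1, stood at 9.55, 9.23 and 8.66 on the arrays labelled MEF and 9.02, 9.07 and 8.87 at passage 5 and was not called (−0.16, adjusted p = 0.584). It was high on all 6 arrays, those labelled MEF included. Of 27 genes of epithelial junctions and keratins 4 rose (14.8%, against 4.86% of all genes): Krt8, a keratin of simple epithelia (1.55), the tight junction protein Tjp3 (1.75), the protease inhibitor Spint1 (1.24) and plakophilin 3, Pkp3 (1.06). Desmoglein 2, Dsg2 (0.90) and Jup (0.14) were not called. When 1 array was left out, the calls lost were Cdh2 (−0.96) without MEF replicate 2, Spint1 (0.99) and Pkp3 (0.80) without MEF replicate 3 and Pkp3 (0.98) without passage 5 replicate 3. Not called under other settings were Itga5 with median scaling over all probes, Cdh3, Cdh2 and Pkp3 with an offset of 50 and in the authors' deposited log2 table, Cdh3 with the mean over probes, Cdh2, Spint1 and Pkp3 on chip 2 alone, Pkp3 with median scaling on probes detected on every array. A further probe gave −0.67 for Itgb1 and −0.04 for Cdh3. Cdh2 was above background on 2 of the 3 arrays at passage 5.

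**Figure D3:**
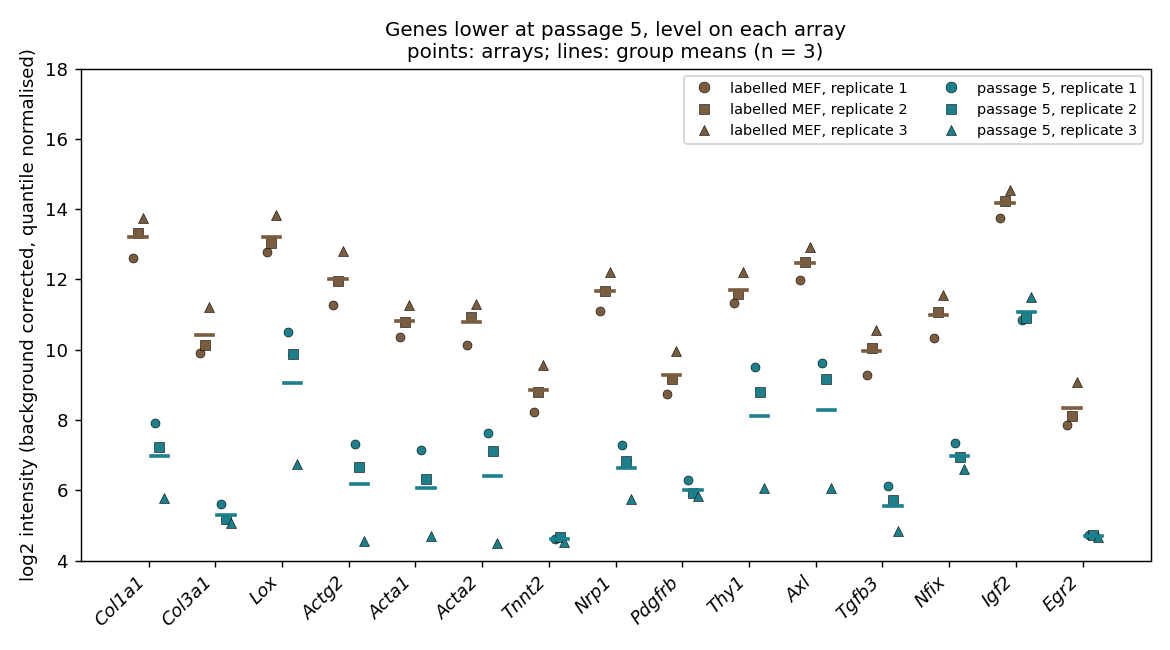
Log2 intensity on each of the 6 arrays for 15 genes that fell at passage 5: matrix (Col1a1, Col3a1, Lox), muscle actins and troponin, surface receptors, Tgfb3, the transcription factors Nfix and Egr2, and the growth factor Igf2. Points are arrays, lines are means of 3, and in all 15 genes every passage 5 point lies below every point labelled MEF, as in 1923 of all 9343 genes.

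Genes of the IGF pathway fell in part, 33.3% of those that passed against 6.98% of all genes. Igf2, the imprinted fetal growth factor, stood at 13.74, 14.22 and 14.54 on the arrays labelled MEF and 10.83, 10.90 and 11.51 at passage 5 (log2 change −3.08, SE 0.24, adjusted p = 1.11e-06). The IGF binding protein Igfbp7 fell by 2.84, the adaptor Irs1 by 2.55 and the receptor Igf1r by 1.62, so 5 of 15 IGF genes fell with Igfbp4 (−1.34), while Igf2r (−0.47) and the RNA-binding proteins Igf2bp1 (0.18) and Igf2bp3 (0.52) were not called. Of 20 imprinted genes that passed, 7 fell and 1 rose, so 40% were called against 11.8% of all genes. Paternally expressed Dlk1 (−2.16) and maternally expressed Cdkn1c (−1.87) both fell, as did the adaptor Grb10 (−3.06). Ppp1r9a rose by 1.18. Alleles cannot be told apart with these probes. Igfbp7 was at −3.53 without passage 5 replicate 1. Igfbp7 was at −1.80 without passage 5 replicate 3. Lost with 1 array left out were Igfbp4 (−1.07) and Ppp1r9a (0.98) without MEF replicate 3. Calls lost under other settings were Igf1r and Ppp1r9a with an offset of 50, Igfbp4 with median scaling over all probes, Igfbp4 and Ppp1r9a on chip 2 alone.

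The share of FGF and ERK genes called in either direction, 14.3%, was near the 11.8% of all genes, and 23.8% of the BMP list and 26.7% of the Wnt list were called. In the FGF and ERK list 2 of 28 rose, Fgf10 (1.996) and Fgf1 (at least 1.96-fold), and 2 fell, the ligand Pdgfc (−2.61) and the receptor Egfr (−2.28). The ERK feedback phosphatase Dusp6 (−0.02) and the ERK target Etv4 (−0.15) were not called. In the BMP list Bmp7 rose (1.21), and the antagonist Grem1 (−2.09), the target Id3 (−1.53), Msx1 and the receptor Bmpr1b (at least 2.53-fold lower) fell, of 21 that passed. Bmp4 (−0.08) was not called. In the Wnt list the secreted modulators Dkkl1 (1.69), Sfrp2 (1.57) and Dkk1 (at least 1.69-fold) rose, and Wnt5a (−2.90), Dkk3 (−2.59), the receptor Fzd1 (−1.87), Rspo3 (−1.65) and Wnt9a (−1.17) fell, of 30 that passed. Beta-catenin, Ctnnb1 (0.15), was not called. Changes without passage 5 replicate 1 were −2.80 for Grem1. Without passage 5 replicate 3, Grem1 was at −1.06. Leaving out 1 array ended the calls of Wnt9a (−0.85) without MEF replicate 3, Wnt9a (−1.14) without passage 5 replicate 2 and Dkk1 (0.97) without passage 5 replicate 3. Of the other settings, calls ended for Fgf1, Bmp7, Bmpr1b, Dkk1, Rspo3 and Wnt9a with an offset of 50, Fgf1, Bmp7, Dkk1 and Wnt9a in the authors' deposited log2 table, Grem1 with only the 6 arrays in the fit, Dkk1 and Wnt9a on chip 2 alone, Dkk1 with median scaling on probes detected on every array, Wnt9a with median scaling over all probes. Another probe gave 0.59 for Fgf10 and −0.98 for Pdgfc. Pdgfc, Wnt5a and Rspo3 were above background on 2 of the 3 arrays at passage 5. Bmp7 was above background on 2 of the 3 arrays labelled MEF.

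Hox genes, which keep a record of position along the body axis, rose in cluster A and fell in cluster C among the 5 that were called. Hoxa5 stood at 5.75, 6.15 and 6.47 on the arrays labelled MEF and 8.15, 8.49 and 8.66 at passage 5 (log2 change 2.31, SE 0.19, adjusted p = 2.06e-06) and Hoxa7 rose by 1.28. Hoxc6 stood at 7.13, 7.47 and 7.95 against 5.81, 5.40 and 4.51 (log2 change −2.28, SE 0.27, adjusted p = 3.01e-05), and Hoxc8 (−2.06) and Hoxc10 (at least 2.01-fold lower) fell. The other 15 of 20 Hox and Meis genes that passed were not called, among them Hoxb4 (0.15), Meis1 (0.04) and Meis2 (−0.29), and 18 had no probe that passed. Of 10 retinoid genes, Stra8 and the transglutaminase Tgm2 (2.38) rose, and the binding protein Crabp1 (−1.36) and the degrading enzyme Cyp26b1 (−1.10) fell. Calls that ended when 1 array was left out were those of Hoxc10 (−0.86), Crabp1 (−0.99) and Cyp26b1 (−0.79) without MEF replicate 3. Other settings ended the calls of Hoxa7, Hoxc10 and Cyp26b1 with an offset of 50 and in the authors' deposited log2 table, Hoxc10, Crabp1 and Cyp26b1 on chip 2 alone, Cyp26b1 with median scaling over all probes. A further probe gave −0.09 for Hoxc8. Hoxc6 and Hoxc8 were above background on 2 of the 3 arrays at passage 5.

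Immediate early transcription factors, which respond to serum, adhesion and stretch within minutes, fell in 10 of 23 that passed (median −0.74). Egr2 stood at 7.87, 8.11 and 9.09 on the arrays labelled MEF and 4.72, 4.74 and 4.66 at passage 5 (at least 10.6-fold lower, adjusted p = 2.00e-07). Fosl2, a Fos-related partner of Jun, stood at 8.73, 9.12 and 9.25 against 6.66, 6.31 and 5.13 (log2 change −3.002, SE 0.32, adjusted p = 1.46e-05) and Egr1 at 11.31, 11.49 and 11.97 against 9.83, 9.47 and 8.92 (log2 change −2.19, SE 0.23, adjusted p = 1.08e-05). The groups did not overlap in these 3. Egr3 (−2.66) and Jun (−1.54) fell too. Dusp1 (−0.16), Klf6 (−0.73) and Klf2 (−0.40) were not called. Jun was not called with an offset of 50. Another probe gave 0.14 for Egr3.

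Of 29 chemokine and inflammation genes that passed, 16 fell and 1 rose, so 58.6% were called, against 11.8% of all genes. Ptgs2, the inducible cyclooxygenase, stood at 8.44, 8.69 and 9.58 on the arrays labelled MEF and 7.07, 6.21 and 4.91 at passage 5 (log2 change −2.84, SE 0.42, adjusted p = 1.83e-04), and Vcam1, an adhesion molecule for leukocytes, at 9.27, 9.44 and 10.17 against 7.68, 7.06 and 5.79 (log2 change −2.78, SE 0.38, adjusted p = 8.78e-05). Csf1, the growth factor of macrophages, fell by 2.79, Cxcl14 by 2.39, Cx3cl1 by 2.22 and Ccl2, which attracts monocytes, by 2.14. Il33, named after its value was seen, rose by 1.12. Interferon and antigen presentation genes were called in 6 of 30 (20%, against 11.8% of all genes), and 24 were not called. The immunoproteasome subunit Psmb9 rose by 2.05, and Ifi27 (−2.56), Isg15 (−1.54), Ifit2 (−1.27), the class I light chain B2m (−1.17) and the RNA sensor Ddx58 (−1.13) fell. Csf1 was at −3.41, Ccl2 at −2.94 and Ifi27 at −3.18 without passage 5 replicate 1. Csf1 was at −1.85, Ccl2 at −1.01 and Ifi27 at −1.56 without passage 5 replicate 3. When 1 array was left out, the calls lost were Ccl2 (−1.93) and Ddx58 (−0.91) without MEF replicate 1, Ccl2 (−2.08) and Ddx58 (−1.09) without MEF replicate 2, Ddx58 (−1.31) without passage 5 replicate 2 and Isg15 (−0.97), B2m (−0.89) and Ddx58 (−0.56) without passage 5 replicate 3. Not called under other settings were Ccl2, B2m and Ddx58 with median scaling over all probes, Ccl2 and Ddx58 with no detection filter and with only the 6 arrays in the fit, Il33, Isg15, Ifit2 and Ddx58 with an offset of 50, Il33, Ifit2 and Ddx58 in the authors' deposited log2 table, Ifit2, B2m and Ddx58 on chip 2 alone, Ddx58 with the mean over probes. A further probe gave −0.80 for Ddx58. Ptgs2, Csf1, Cxcl14, Ccl2, Ifi27, Isg15 and Ifit2 were above background on 2 of the 3 arrays at passage 5. Psmb9 was above background on 2 of the 3 arrays labelled MEF.

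Genes of energy metabolism were mostly not called, while most changes in the glycolysis list were positive and small. Of 31 glycolysis and hypoxia genes 7 rose, 1 fell and 27 had a positive change (median 0.38). Over all genes 4.86% were called higher, 55.05% had a positive change and the median was 0.05. Aldoc, an aldolase, stood at 7.59, 7.52 and 7.13 on the arrays labelled MEF and 9.53, 9.72 and 9.98 at passage 5 (log2 change 2.33, SE 0.28, adjusted p = 3.52e-05). The carbonic anhydrase Car12 (2.03), phosphofructokinase Pfkl (1.41) and the glucose transporter Slc2a1 (1.17) rose, and adrenomedullin, Adm (−1.02), fell. Gapdh (0.10), Ldha (0.18) and Pkm (0.23) were not called. Cox7a1, the muscle form of a cytochrome oxidase subunit, stood at 7.39, 7.43 and 6.69 against 9.46, 9.65 and 10.18 (log2 change 2.59, SE 0.24, adjusted p = 4.23e-06) and was the sole call among 40 respiratory chain genes. Among fatty acid genes 3 of 31 rose, Fabp3, lipoprotein lipase Lpl (1.60) and the muscle carnitine palmitoyltransferase Cpt1b (1.06), and Fabp5 fell (at least 2.27-fold lower). Fasn (−0.27), Acly (0.64) and Scd2 (−0.72) were not called. In cholesterol synthesis Pmvk (1.59) was the sole call among 17. Positive changes numbered 35 of 40 in the respiratory chain list (median 0.18) and 15 of 17 in cholesterol synthesis (median 0.44). Changes of this size depended on the scaling between arrays. Gapdh was at −0.25 with median scaling on probes detected on every array, and Fasn at 0.00899 with median scaling over all probes. Lost with 1 array left out were Adm (−0.99) without MEF replicate 2, Adm (−0.84) and Fabp5 (−0.84) without MEF replicate 3 and Adm (−0.95) without passage 5 replicate 1. Calls lost under other settings were Adm, Cpt1b and Fabp5 with an offset of 50, in the authors' deposited log2 table and on chip 2 alone, Adm with median scaling over all probes, Cpt1b with median scaling on probes detected on every array. Another probe gave 0.99 for Cpt1b.

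Part of the stress response genes fell. Of 36 genes of serine synthesis, the ATF4 response and the unfolded protein response 8 fell, among them the stress protein Nupr1 (−1.94), Phgdh, the entry enzyme of serine synthesis (−1.60), and the factor Cebpb (−1.31). Asns (−0.52) and Hsp90b1 (0.29) were not called. The share of this list that fell was 22.2%, against 6.98% of all genes. Of the glutathione genes that passed, 20.7% were called, against 11.8% of all genes. In the glutathione list the secreted peroxidase Gpx3 rose, at 7.44, 7.43 and 7.25 on the arrays labelled MEF and 9.17, 9.60 and 9.70 at passage 5 (log2 change 2.11, SE 0.18, adjusted p = 2.19e-06), while Gpx8, a peroxidase of the endoplasmic reticulum (−2.51), Gsto1 (−1.87), the metallothionein Mt2 (−1.28), Gsta3 (−1.28) and Gpx2 (−1.22) fell, of 29 that passed. Changes without passage 5 replicate 3 were −1.17 for Gsto1. Leaving out 1 array ended the calls of Gsta3 (−1.03) and Gpx2 (−0.96) without MEF replicate 1, Gsta3 (−1.20) and Gpx2 (−1.17) without MEF replicate 2 and Mt2 (−0.81), Gsta3 (−0.66) and Gpx2 (−0.63) without passage 5 replicate 3. Of the other settings, calls ended for Cebpb, Mt2, Gsta3 and Gpx2 with median scaling over all probes, Mt2, Gsta3 and Gpx2 with only the 6 arrays in the fit, Gsta3 and Gpx2 with no detection filter, Gpx2 on chip 2 alone.

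Cell cycle genes were called in 4 of 42 (9.52%), near the share of all genes. Pcna, the sliding clamp of replication, stood at 6.20, 6.73 and 7.94 on the arrays labelled MEF and 8.93, 9.35 and 10.09 at passage 5 (log2 change 2.50, SE 0.38, adjusted p = 2.16e-04). The D-type cyclins Ccnd2 and Ccnd1, which couple growth signals to the cycle, stood at 12.51, 12.58 and 13.12 against 11.17, 10.51 and 9.13 (log2 change −2.46, SE 0.38, adjusted p = 2.35e-04) and at 12.37, 12.40 and 12.38 against 11.55, 11.20 and 9.99 (log2 change −1.47, SE 0.28, adjusted p = 0.00123). Pcna and the cyclins thus went opposite ways with no overlap between the groups. The mitotic kinesin Kif20a fell (−1.11), and Mcm4 (0.40), Mcm5 (0.41), Uhrf1 (0.24) and Birc5 (−0.17) were not called. Of 26 p53 targets and cell cycle inhibitors 5 fell (19.2%, against 6.98% of all genes): the inhibitor Cdkn2b (−2.65), Cdkn1a, or p21 (−1.43), Plk2 (−1.73), Gadd45g (−1.57) and Phlda3 (−1.03). Mdm2 (−0.21) and Ccng1 (−0.35) were not called. Among 25 genes of DNA methylation, hydroxymethylation and Polycomb, limma called 0, with 8 at an unadjusted p under 0.05 and 4 at an adjusted p under 0.05 short of 2-fold. Dnmt3b had a change of 0.55 and Dnmt3l of −0.62. Calls that ended when 1 array was left out were those of Kif20a (−0.98) without MEF replicate 1, Kif20a (−0.98) and Phlda3 (−0.95) without MEF replicate 2, Phlda3 (−0.999) without passage 5 replicate 1 and Kif20a (−0.82) and Phlda3 (−0.98) without passage 5 replicate 3. Other settings ended the calls of Kif20a, Gadd45g and Phlda3 with an offset of 50, Kif20a and Phlda3 in the authors' deposited log2 table, Phlda3 with median scaling over all probes and on chip 2 alone. Kif20a was above background on 2 of the 3 arrays at passage 5.

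Genes of other lineages moved in both directions. Among neural genes 6 of 20 fell and 2 rose, so 40% were called, against 11.8% of all genes. Nes, the intermediate filament nestin, stood at 8.65, 9.23 and 9.84 on the arrays labelled MEF and 6.12, 5.83 and 5.93 at passage 5 (log2 change −3.28, SE 0.22, adjusted p = 3.60e-07), and Zic1 (−2.60), Ncam1 (−2.38), Dcx (−1.65) and Gap43 (−1.49) fell, while Gfap (1.74) and Olig1 (1.56) rose. Of 13 endothelial genes (38.5% called) Nostrin, von Willebrand factor, Vwf (2.53), Mmrn2 (1.69) and Esam (1.64) rose and the VEGF receptor Flt1 (−1.52) fell. Of the others, Kdr, Tie1, Erg, Emcn and Lyve1 had no probe that passed. In the trophoblast list Tfap2c rose by 2.23 beside Eomes, of 10 that passed, with Elf5, Hand1 and Ascl2 below the filter. In the macrophage and blood list 17 of 22 had no probe that passed, among them Ptprc, Adgre1, Itgam, Tyrobp and C1qa, and Srgn and Fcgr3 (at least 2.67-fold higher) rose. Of 11 adipocyte, bone and cartilage genes Col2a1, Mgp (−2.94) and Sox9 fell and Alpl rose, and of 5 keratinocyte genes Krt17 rose (1.17). Of 14 housekeeping genes 1 was called, B2m. Without passage 5 replicate 1, Mgp was at −3.60. Mgp was at −1.90 without passage 5 replicate 3. Krt17 was not called without MEF replicate 3 (0.92). Not called under other settings were Gfap, Olig1 and Fcgr3 with an offset of 50, Krt17 on chip 2 alone. Gfap was above background on 1 of the 3 arrays labelled MEF. Mgp was above background on 2 of the 3 arrays at passage 5.

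**Figure D4:**
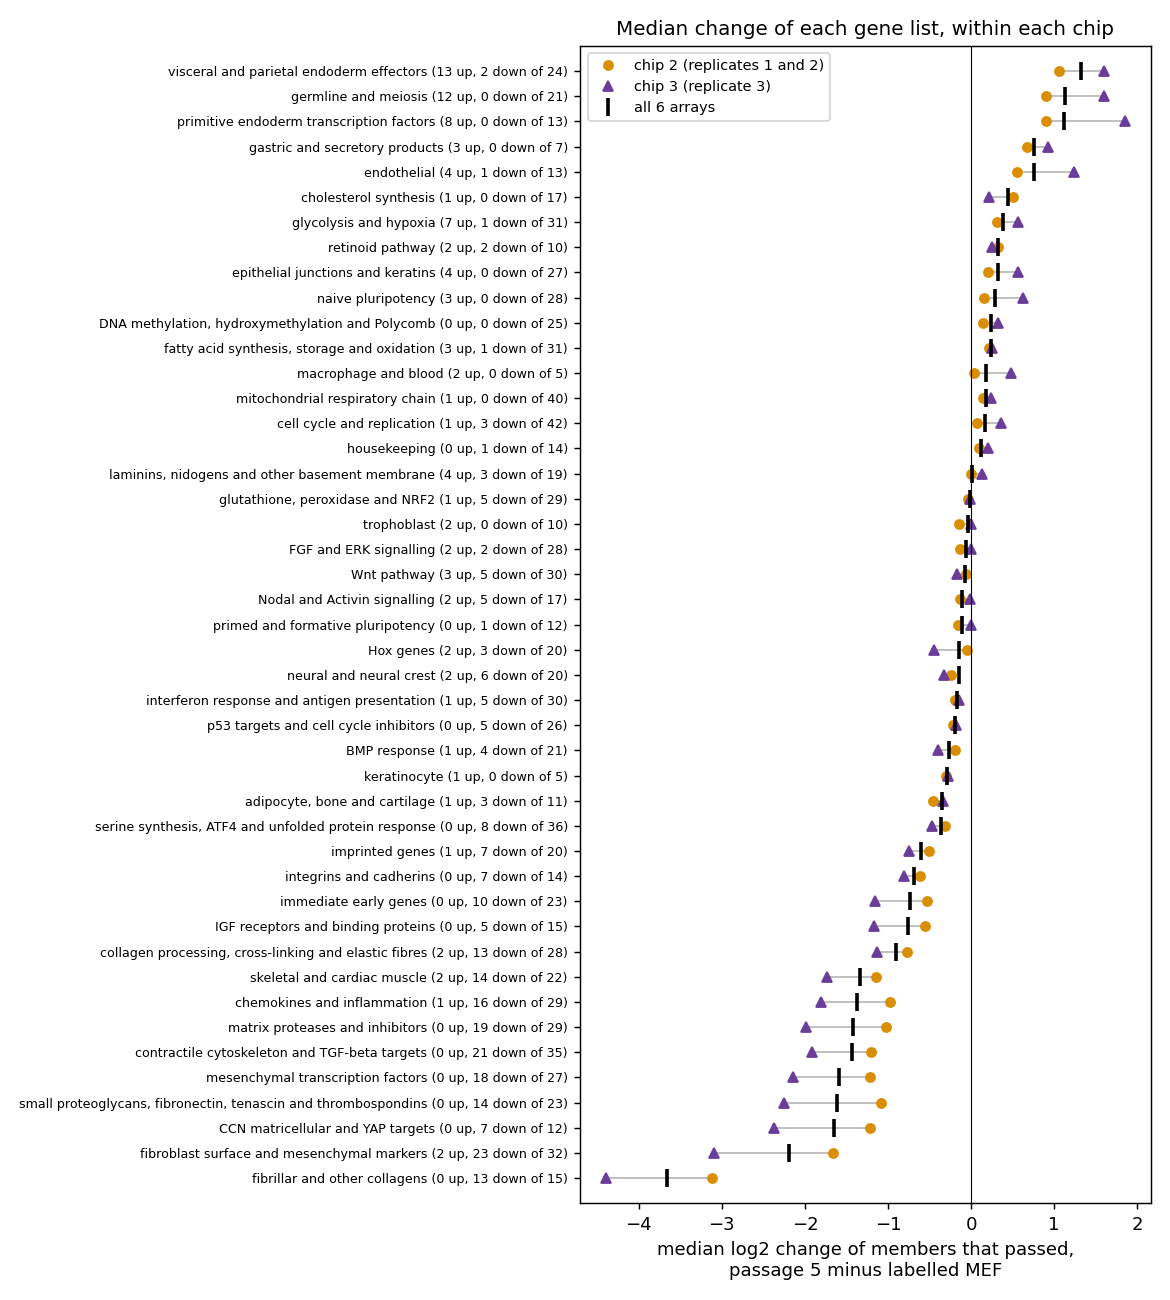
Median log2 change (passage 5 minus labelled MEF) of the members that passed detection, for each of the 45 gene lists, within chip 2 (circle, 2 arrays a group), within chip 3 (triangle, 1 array a group) and over all 6 arrays (bar), with counts called. Collagens lie lowest at −3.66 and endoderm effectors highest at 1.33 (1.11 with undetected genes at their bound, then level with the germline and primitive endoderm lists), and in both the chip 3 value lies farther from 0.

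The 2 chips gave the same direction for all 1106 called genes and different sizes. Agreement in direction was likely beforehand, since the genes were called on these same arrays. On chip 2, with 2 arrays a group, the median log2 change was 1.20 for the genes that rose and −1.30 for those that fell, and on chip 3, with 1 array a group, 1.81 and −2.30. Single arrays vary more than means of 2, so a larger difference on chip 3 was likely beforehand in more of the genes. How much of the following counts this makes up was not tested. The difference on chip 3 was the larger in 1083 called genes and in 77.0% of all genes. Both chip 3 arrays took part in it. Median levels of the genes that fell were 8.11, 8.38 and 8.85 on the arrays labelled MEF and 6.77, 6.46 and 5.90 at passage 5, so MEF replicate 3 was highest and passage 5 replicate 3 lowest. The fibroblast lists did likewise. The collagens that passed had median levels of 8.11, 8.61 and 9.33 on the arrays labelled MEF and 5.51, 5.19 and 5.08 at passage 5. The fibroblast surface list had 9.53, 9.79 and 10.36 against 7.9999, 7.46 and 5.84 and the contractile list 10.16, 10.47 and 11.01 against 8.38, 8.53 and 8.09. The endoderm effectors had 7.07, 7.13 and 7.05 against 7.70, 7.88 and 8.21, and the primitive endoderm factors 6.05, 5.89 and 5.61 against 8.01, 8.38 and 8.38. Genes of naive pluripotency stood at 10.41, 10.27 and 9.65 against 10.76, 10.72 and 10.49, lowest on replicate 3 among the arrays labelled MEF. The summed pluripotency markers were lowest there too, and the part of this in the results was not tested.

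**Figure D5:**
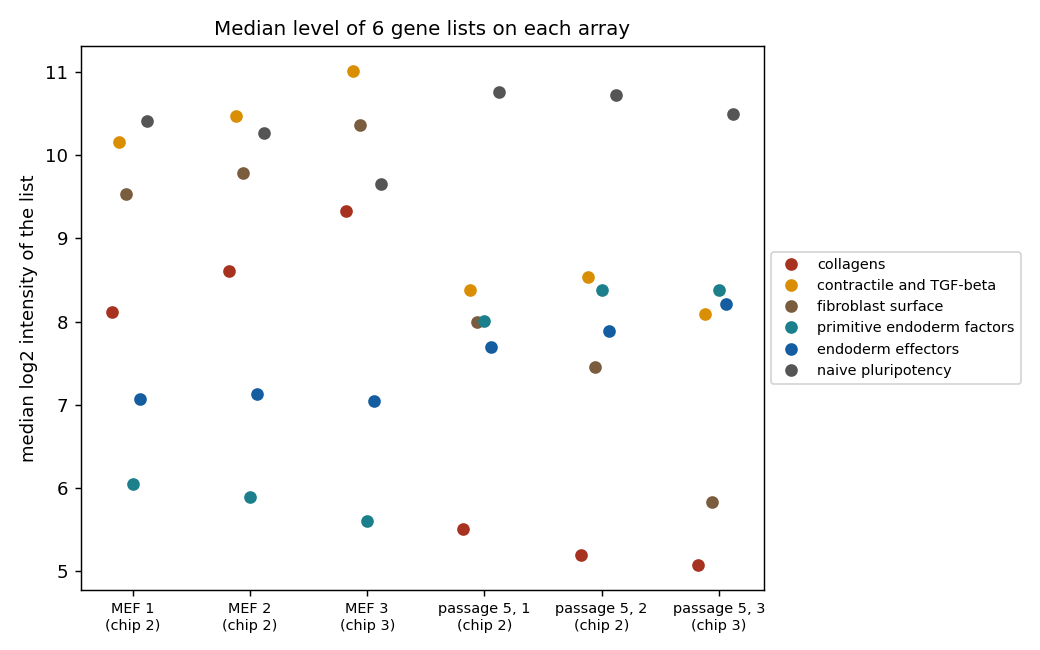
Median log2 intensity of the members that passed detection in 6 gene lists, on each of the 6 arrays with its chip. The 3 fibroblast lists fall from the arrays labelled MEF to passage 5 and lie lowest on passage 5 replicate 3, while the 2 endoderm lists are higher on all passage 5 arrays.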

How the data were processed

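RNA of 12 samples was hybridised to Illumina mouse bead arrays, 3 arrays each for MEF, passage 5 spheres, passage 15 spheres and embryonic stem cells. Per the labels' protocols, RNA was extracted with Trizol and a column kit with DNase, and biotinylated cRNA was made by linear amplification. The deposited table gives an average signal per probe, an intensity with no scaling between arrays and, from its negative values, with background already subtracted. It also gives a detection p-value per probe which, per the file headers, belongs to each array, so it was computed before the authors deposited the table. A second deposited table holds the authors' log2 values, equally distributed on all 12 arrays as after quantile normalisation. Another holds the same log2 values (largest difference 0 over 46657 probes). Which software made them is not given in the sources used here.

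Of 46657 probes, all but 20 with a signal or detection p that could not be read as a number were analysed. Of the 46657, 22380 had 1 gene symbol, 0 had several and 24277 had none. Normexp background correction with an offset of 16, quantile normalisation and log2 were applied to all 12 arrays (neqc, limma 3.58.1, R 4.3.3). The background was estimated from the detection p-values. A probe was kept if its detection p was below 0.05 throughout at least 1 group of 3 arrays, and each gene took its probe of highest mean level, giving 9343 genes. A limma model with a mean per group was fitted to 12 arrays (8 residual and 4.98 prior degrees of freedom), p-values were adjusted by Benjamini-Hochberg over all genes, and a call needed an adjusted p under 0.05 and a log2 change of at least 1. A probe undetected on all arrays of a group is given as a bound, from the mean of the brighter group against the higher, per array, of its own level and the lowest level detected. The script was tested on simulated data.

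The comparison, the 45 gene lists and their members were chosen with earlier results of these data known. Named genes are 12 fixed genes, the 15 largest rises and falls without overlap between groups, and in each list up to 8 called members with the largest change and up to 3 uncalled ones with the highest level. Genes named outside this rule are marked so, except markers in the check of the labels and examples of list members that failed the detection filter, which were picked after it was applied. Promoter windows are RefSeq sequences on GRCm38.p6. Alternatives changed the offset (together with the way background was estimated), scaling, detection filter, probe choice, arrays fitted, blocks and threshold, and used the authors' table.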

Additional observations from a re-analysis of the deposited data

Results flagged for a closer look

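Of 7288 probes that passed the detection filter without a gene symbol, 236 were higher and 401 lower at passage 5 at the same thresholds, when they were fitted together with the named probes. They lie outside every count of genes given above, and no explanation was sought.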

How the results depend on the processing

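Of 1106 calls, 825 held whichever single array was left out. Counts ranged from 957 to 1279 over these fits, with 389 to 551 genes higher and 558 to 740 lower. An offset of 50 gave 679 calls, 246 higher and 433 lower, of which 677 were among the 1106, and log2 changes were 0.721 of the reported ones at the median. The background was there also estimated without the detection p, so the part of the offset alone was not tested. The authors' deposited log2 table gave 758, with 285 higher and 473 lower (755 shared). With no fold threshold 3364 genes passed, 1947 higher and 1417 lower. Median scaling over all probes gave 1418, with 907 higher and 511 lower (955 shared), and median scaling over the probes detected on all 12 arrays, chosen after seeing the data, gave 376 higher and 822 lower (1028 shared). A detection p of 0.01, no detection filter, the mean over probes, the 6 arrays alone, the intensity trend, chip as a block and chip 2 alone gave 827 to 1111 calls. All 1106 kept their direction under each of these settings in which they were tested, 1074 of them at a detection p of 0.01. Such agreement was likely beforehand, since a call needed a 2-fold change on these same arrays.

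Replicate numbers went with a weak likeness between the arrays of the 2 groups. The correlations of deviations from the group means were 0.0414, 0.272 and 0.138 between same-numbered arrays and −0.219 to 0.122 between others. Of the 6 arrays, 5 correlated best with their own number. Replicate 3 of both groups also shared a chip of its own, so number and chip cannot be told apart there. The fit with the replicate block gave 1107 calls, 457 higher and 650 lower, with 1103 shared.

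Among the genes named in the text, the changes that turned sign were those of genes not called. They were Birc5 (0.18), Bmp4 (0.27), Cdh1 (0.20), Dusp1 (0.20), Dusp6 (0.34), Etv4 (0.21), Fasn (0.00899), Mdm2 (0.15), Meis2 (0.0370), Nodal (0.0832), Plod3 (0.33) and Pou5f1 (0.18) with median scaling over all probes, Col17a1 (−0.0746), Ctsb (−0.0458), Gapdh (−0.25), Gsc (−0.18), Meis1 (−0.0408) and Sparc (−0.0362) with scaling on detected probes, Ccng1 (0.36) and Ctsb (−0.33) with the mean over probes and Plod3 (0.0922) and Zfp42 (−0.0671) on chip 2 alone. With 1 array left out they were Bmp4 from −0.22 to 0.0328, Cdh1 from −0.40 to 0.0463, Dusp6 from −0.0651 to 0.0483, Gdf3 from −0.0642 to 0.51, Gsc from −0.00987 to 0.20, Hoxb4 from −0.00620 to 0.30, Meis1 from −0.14 to 0.32, Pgc from −0.0169 to 0.33, Plod3 from −0.18 to 0.19, Pou5f1 from −0.41 to 0.0401, Sparc from −0.11 to 0.33 and Zfp42 from −0.13 to 0.31. The median of the retinoid list was −0.0185 at a detection p of 0.01. The cause was not tested. The number of arrays, 3 a group, limits precision, and levels near background carry no order.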
